A study of Mus musculus with 8 samples.

Results

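The genes described here are 36 genes of macrophages, dendritic cells and neutrophils, taken by name from a table of 39179 genes counted in 8 mouse intestinal libraries. All 36 were found in the table, and all 36 passed the filter on low counts, as did 18345 genes in all. They were sorted by role into 12 macrophage genes, 9 genes shared by myeloid cells, 4 dendritic cell genes, 8 neutrophil genes and 3 genes for arginase and chitinase-like proteins. The adenoma group had 5 libraries of small intestinal adenoma, benign epithelial tumours, from VilCreER+ APCfl/+ mice, which carry a floxed copy of Apc beside a normal one. They were compared with 3 libraries of small intestine from VilCreER+ mice, here called wild type, which the series text describes as whole intestine. Both groups were on an inbred C57BL6/J background, both carried VilCreER, a tamoxifen-activated Cre recombinase under the villin promoter, and both are labelled as having had recombination induced with tamoxifen in the animal. The series text calls the tumour-bearing mice aged and gives no age, and none is given for the wild-type mice. The villin promoter is active in intestinal epithelium, so myeloid cells are not the cells in which Cre acts. RNA came from whole tissue, so fewer cells of a type and less RNA per cell cannot be told apart. The comparison asks how the myeloid genes of an adenoma differ from those of small intestine.

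The wall of the small intestine holds a large population of resident macrophages, which clear dying cells and bacteria and are replaced from blood monocytes that depend on the receptor Csf1r. Dendritic cells take up antigen and carry it to lymph nodes, and the conventional type 1 subset, marked by Clec9a and dependent on Batf3, presents antigen of dead cells to CD8 T cells. Neutrophils are short-lived blood granulocytes that are scarce in healthy mucosa and enter tissue along gradients of chemokines that bind Cxcr2.

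Total counts per library ran from 18040301 to 28343915. Values are in CPM, counts scaled by library size, and log2 fold changes are adenoma over wild type ± SE, with adjusted p-values from edgeR's quasi-likelihood test over all genes tested. Nothing in the labels ties a library to its own mouse, so the p-values measure the spread between these samples, which may be technical. Adenoma 2 stood apart from the other libraries and went against its label of small intestinal adenoma. It held 245.5 CPM of the hindgut gene Hoxb13, where no other library exceeded 0.894 CPM, and 0.470 CPM of Gata4, a gene of proximal small intestine, which stood at 68.4 to 84.4 CPM in the other adenomas and at 86.9 to 100.8 CPM in wild type. It was the highest adenoma for 31 of the 36 genes, or 86.1%, while it was highest for 36.6% of all genes tested. Each result below for the 36 genes is therefore also given without it where that changes a call. Calls of genes in the further lists were not looked at without it. Pancreatic genes were present in adenoma 5 and wild type 1, with summed levels over 6 acinar genes of 593 CPM in adenoma 5 and 909 CPM in wild type 1, against at most 4.60 CPM in the other libraries. Adenoma 1 and the wild-type libraries had the male pattern of Xist and the Y-linked gene Ddx3y, and adenomas 2 to 5 the female one.

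The 36 genes did not move as 1 block. In adenomas 13 were higher and 5 lower at an adjusted p below 0.05, 18 of 36 in all, where 30.3% of all genes tested were higher and 27.8% lower, 58.1% together. The neutrophil genes were higher, with 7 of 8 called, the dendritic cell genes were lower, with 4 of 4 called, and 9 of 12 macrophage genes were called in neither direction. A test against a change by a factor of 2 called 10 of the 36 higher and 2 lower, against 5.66% higher and 7.52% lower among all genes tested. The median log2 fold change was 3.65 for the neutrophil genes, -1.45 for the dendritic cell genes, 3.13 for the arginase and chitinase genes, 0.15 for the shared myeloid genes and 0.08 for the macrophage genes, beside 0.04 for all genes tested. Setting Ly6g, which had 0 counts in wild type, to its lower bound left these medians at the same values.

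**Figure D1:**
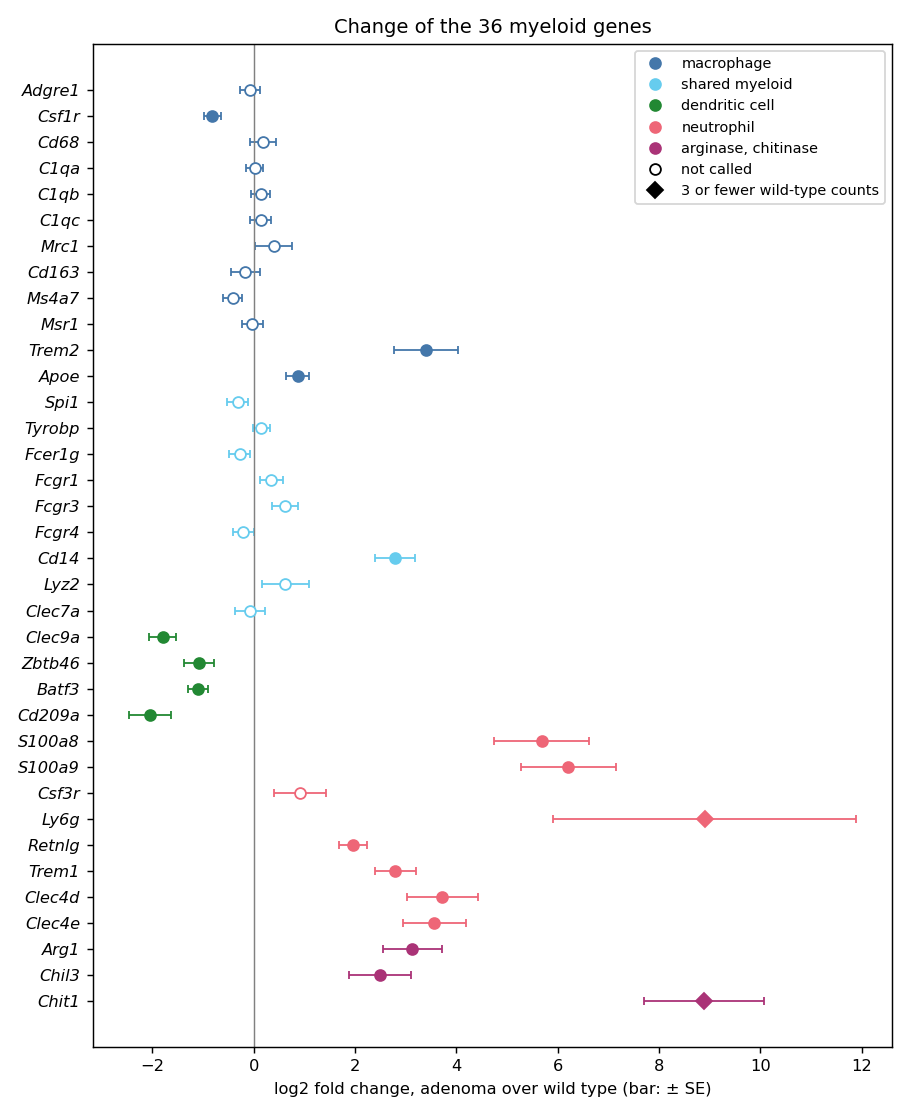
Log2 fold change of each of the 36 genes, adenoma over wild type, with bars of ± SE, grouped and coloured by role. Filled points passed an adjusted p of 0.05, open points did not, and diamonds mark the 2 genes with 3 or fewer counts over the wild-type libraries, whose fitted size rests on the prior. Neutrophil genes lie to the right of 0, the 4 dendritic cell genes to the left, and most macrophage genes near 0.

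Neutrophil genes were higher in adenoma. S100a8 and S100a9 encode the subunits of calprotectin, the zinc- and manganese-binding protein that fills neutrophil cytosol. In adenomas 1 to 5, S100a9 (ENSMUSG00000056071, chromosome 3, 90692632 to 90695721, minus strand) stood at 18.6, 34.1, 3.31, 13.2 and 18.2 CPM, against 0.407, 0.167 and 0.109 CPM in wild types 1 to 3. S100a8 (ENSMUSG00000056054, chromosome 3, 90668978 to 90670035, plus strand) stood at 8.34, 19.1, 2.81, 9.12 and 12.0 CPM in the same adenomas, against 0.458, 0.111 and 0 CPM in wild type. Every adenoma lay above every wild-type library for both genes, with adenoma 3 the lowest and adenoma 2 the highest. S100a9 rose by a log2 fold change of 6.21 ± 0.94 (adjusted p = 9.74e-04) and S100a8 by 5.68 ± 0.94 (adjusted p = 0.00134). Wild-type counts summed to 13 and 11, so the size of these changes rests on few reads.

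Surface receptors of neutrophils and inflammatory monocytes were higher too. Trem1, which amplifies inflammatory signalling through the adaptor Tyrobp, stood at 5.13, 4.60, 1.83, 4.37 and 3.59 CPM in adenomas, against 0.407, 0.780 and 0.491 CPM in wild type (log2 fold change 2.79 ± 0.41, adjusted p = 5.76e-04). Clec4d and Clec4e are neighbouring lectin receptor genes whose products sense mycobacterial glycolipid and, for Clec4e, dead cells. Clec4d averaged 2.66 ± 1.62 CPM in adenoma and 0.193 ± 0.127 CPM in wild type (SD, n = 5 and 3), and Clec4e averaged 2.18 ± 1.27 CPM in adenoma and 0.177 ± 0.0732 CPM in wild type. Their log2 fold changes were 3.73 ± 0.70 (adjusted p = 0.00203) and 3.57 ± 0.63 (adjusted p = 0.00152). Retnlg, a resistin-like protein secreted by mouse neutrophils, stood at 5.36, 6.57, 4.02, 4.5 and 3.83 CPM in adenomas, against 0.866, 1.45 and 1.42 CPM in wild type, a rise of 1.96 ± 0.28 (adjusted p = 4.84e-04). For these 4 genes the groups did not overlap, as they did not for 13 of the 36 with adenoma above and 5 with adenoma below, against 29.3% and 27.6% of all genes tested, 56.9% together.

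Csf3r and Ly6g, both common neutrophil markers, were the neutrophil genes whose calls turned on single libraries. Csf3r encodes the receptor for granulocyte colony-stimulating factor. It stood at 6.85, 12.9, 2.14, 4.41 and 6.19 CPM in adenomas, against 2.75, 3.23 and 4.36 CPM in wild type, and was not called (log2 fold change 0.91 ± 0.51, adjusted p = 0.151). Without adenoma 3, the lowest library, it was called higher, at 1.13 (adjusted p = 0.0355). Ly6g (ENSMUSG00000022582, chromosome 15, 75155240 to 75159126, plus strand) encodes the surface antigen by which mouse neutrophils are sorted. It had 0 counts in each wild-type library and 0.559, 10.9, 0.849, 0.735 and 0.745 CPM in adenomas 1 to 5. Taking 3 counts summed over the wild-type libraries as the floor, it was at least 47.9-fold higher in adenoma with all libraries and at least 13.5-fold higher without adenoma 2, which held 233 of its 303 counts. The adjusted p of 0.0456 lay between 0.0501 and 0.0853 when any library but adenoma 2 was left out, was 1.91e-04 without adenoma 2, and was 0.277 with the sex pattern as a covariate. A count of 0 in a wild-type library allows up to 0.153 to 0.167 CPM, and that limit covers counting error only.

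Calls in lists of other cell types stand beside 30.3% higher and 27.8% lower among all genes tested, 58.1% together. The endothelial, pan-epithelial, smooth muscle and B and plasma cell lists had calls near or below that share. The 8 neutrophil genes summed to 16.8 to 97.7 CPM in adenoma and to 5.45 to 6.71 CPM in wild type. A list of 6 erythrocyte genes was higher in all 6 members, with summed levels of 138 to 346 CPM in adenoma against 8.73 to 20.96 CPM in wild type, and 5 of 6 mast cell genes were higher, with sums of 61.8 to 155 CPM in adenoma and 13.9 to 19.2 CPM in wild type. Of 5 fibroblast genes 4 were higher, with sums of 2090 to 2593 CPM in adenoma and 919 to 1208 CPM in wild type. Of 5 endothelial genes 3 were higher, with overlapping sums of 124 to 215 CPM in adenoma and 122 to 140.2 CPM in wild type. Smooth muscle genes had 2 of 5 lower, with sums of 383 to 939 CPM in adenoma and 837 to 1509.6 CPM in wild type. Paneth cell genes had 4 of 5 lower and 1 higher, with sums of 1202 to 4054 CPM in adenoma and 6729 to 7728 CPM in wild type. B and plasma cell genes had 1 of 6 higher and 1 lower, with sums of 969 to 1503 CPM in adenoma and 1288 to 1384 CPM in wild type. Pan-epithelial genes summed to 5339 to 10326 CPM in adenoma and 6492 to 7559 CPM in wild type, with 4 of 8 called higher and 1 lower. The lower one was Vil1, villin, at 355 to 984 CPM in adenoma and 1835 to 2337 CPM in wild type (adjusted p = 0.00306). The part of these cell types in the neutrophil result was not tested.

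**Figure D2:**
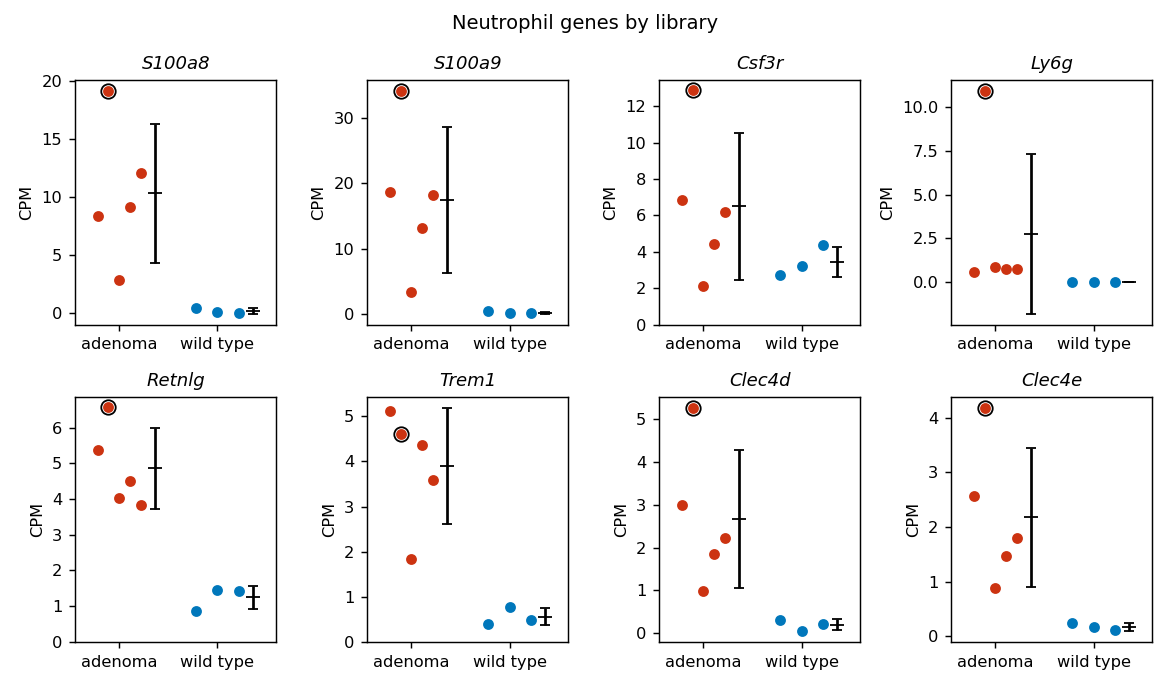
CPM of the 8 neutrophil genes in each library, adenoma left in red and wild type right in blue, with the mean ± SD as a black bar and adenoma 2 circled. Every adenoma lies above every wild-type library for all genes shown but Csf3r, and adenoma 2 is the highest for all but Trem1.

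Most tested genes of a further list of 16 neutrophil genes were higher too. Of its 11 tested genes 10 were higher and 0 lower, against 30.3% and 27.8% of all genes tested. Its sums over all 16 were 414, 209, 188, 272 and 765 CPM in adenomas 1 to 5, against 40.2, 59.3 and 40.9 CPM in wild type. They were highest in adenomas 5 and 1, where Ltf and Cd177 made up most of both sums. Ltf stood at 419.9 and 199.9 CPM there, and Cd177 at 219.8 and 76.3 CPM. Adenomas 5 and 1 also had the highest erythrocyte sums, at 346 and 302 CPM. The order of the sums without Ltf and Cd177 was not tested. The 8 neutrophil genes above were instead highest in adenoma 2. Padi4, the enzyme that citrullinates histones in neutrophil traps, averaged 12.3 ± 1.64 CPM in adenoma and 0.362 ± 0.170 CPM in wild type (log2 fold change 5.07 ± 0.28, adjusted p = 9.58e-06). The cytokine gene Il1b averaged 23.6 ± 7.88 CPM in adenoma and 3.31 ± 0.470 CPM in wild type (adjusted p = 1.30e-04). Mmp8, neutrophil collagenase, averaged 4.39 ± 1.45 CPM in adenoma and 0.360 ± 0.124 CPM in wild type. The gelatinase gene Mmp9 averaged 68.3 ± 5.21 CPM in adenoma and 29.5 ± 8.02 CPM in wild type. Among adenomas S100a9 ran from 3.31 CPM in adenoma 3 to 34.1 CPM in adenoma 2. Il1b had the same lowest and highest adenomas, at 13.8 and 35.7 CPM. Padi4 ran only from 10.2 to 14.7 CPM, and Mmp9 was lowest in adenoma 2, at 63.8 CPM. Mmp8 was lowest in adenoma 3 and highest in adenoma 4. The cells that held Padi4, Il1b, Mmp8 and Mmp9 were not tested. Granule genes that neutrophils make as precursors in bone marrow, named after their values were seen, differed among themselves. Elane had 0 counts in all 8 libraries, Mpo and Ngp had at most 7 counts in any library, and Camp had 7 counts over the adenomas and 14 over wild type. Ltf, lactoferrin, which glandular epithelium also makes, stood at 199.9, 4.60, 50.5, 105 and 419.9 CPM in adenomas 1 to 5, against 0.764, 3.85 and 2.07 CPM in wild type (log2 fold change 6.14 ± 1.53, adjusted p = 0.0103). It was lowest of the adenomas in adenoma 2, and most of the list's sum in adenoma 5 was Ltf.

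Chemoattractants for neutrophils were also higher. In a list of 15 growth factors and chemoattractants of myeloid cells, 13 were tested, 6 were higher and 2 lower. Among all genes tested 30.3% were higher and 27.8% lower. Ligands of the neutrophil receptor Cxcr2 were among the higher genes of the list. Cxcl2 averaged 8.16 ± 3.47 CPM in adenoma and 0.342 ± 0.0912 CPM in wild type (log2 fold change 4.56 ± 0.50, adjusted p = 1.46e-04), and Cxcl5 averaged 27.4 ± 18.1 CPM in adenoma and 0.957 ± 0.283 CPM in wild type (4.84 ± 0.77, adjusted p = 0.00127). Cxcl3 averaged 1.6 ± 0.400 CPM in adenoma and had 1 count in wild type, a ratio of 89.2 with an exact 95% counting interval of 15.8 to 3543. Cx3cl1, the membrane-bound chemokine that binds the receptor Cx3cr1 on macrophages, fell by 0.61 ± 0.10 on the log2 scale (adjusted p = 8.51e-04). It averaged 51.8 ± 5.28 CPM in adenoma and 79.2 ± 4.61 CPM in wild type. Csf1, the growth factor of macrophages, named here after its value was seen, was not called, at a log2 fold change of -0.01 ± 0.25.

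The stretch before the start of S100a8, S100a9 and Trem1, which rose together, is printed with that of C1qb, which was not called, and of Clec9a, which fell. The letters are from RefSeq on GRCm38.p6, where 28 of the 36 genes had an entry, read 5′ to 3′ on the gene's strand, and cover the 250 bases before the RefSeq start as far as they lie outside the GENCODE gene. Capitals mark AGGAAGT, the core bound by PU.1, the product of Spi1, and TTGCNNAA, the core bound by C/EBP factors, each searched on both strands. The motifs were chosen after these stretches had been searched.
S100a8 (chr3:90668821-90668977, plus strand, 157 bases), with AGGAAGT on the opposite strand:
S100a8: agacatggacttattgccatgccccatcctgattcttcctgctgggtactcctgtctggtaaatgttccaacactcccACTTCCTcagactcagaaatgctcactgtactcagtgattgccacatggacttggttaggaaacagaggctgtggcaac
S100a9 (chr3:90695722-90695971, minus strand, 250 bases), with TTGCNNAA:
S100a9: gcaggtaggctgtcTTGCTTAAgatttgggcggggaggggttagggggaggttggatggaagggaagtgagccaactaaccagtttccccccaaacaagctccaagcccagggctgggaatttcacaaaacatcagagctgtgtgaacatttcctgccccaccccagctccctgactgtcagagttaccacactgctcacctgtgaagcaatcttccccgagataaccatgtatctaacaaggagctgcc
Trem1 (chr17:48232489-48232738, plus strand, 250 bases), with AGGAAGT on the opposite strand:
Trem1: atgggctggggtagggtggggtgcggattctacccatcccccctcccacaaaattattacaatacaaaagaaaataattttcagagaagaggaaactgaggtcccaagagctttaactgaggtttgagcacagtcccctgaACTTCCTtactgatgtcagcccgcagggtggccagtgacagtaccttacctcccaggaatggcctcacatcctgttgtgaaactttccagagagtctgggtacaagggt
C1qb (chr4:136886201-136886450, minus strand, 250 bases), with AGGAAGT on the opposite strand:
C1qb: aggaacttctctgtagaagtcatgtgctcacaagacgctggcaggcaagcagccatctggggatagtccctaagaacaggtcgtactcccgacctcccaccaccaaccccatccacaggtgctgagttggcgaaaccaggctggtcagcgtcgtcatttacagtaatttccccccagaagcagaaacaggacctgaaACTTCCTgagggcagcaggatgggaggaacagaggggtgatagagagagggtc
Clec9a (chr6:129408612-129408861, plus strand, 250 bases), with neither motif:
Clec9a: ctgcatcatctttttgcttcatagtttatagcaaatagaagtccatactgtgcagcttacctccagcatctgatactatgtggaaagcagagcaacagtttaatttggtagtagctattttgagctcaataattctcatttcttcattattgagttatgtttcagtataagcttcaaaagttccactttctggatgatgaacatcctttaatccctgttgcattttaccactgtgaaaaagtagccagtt
Over 250 bases, AGGAAGT was found before 10 of the 28 genes and in 7.69% of all 32851 RefSeq windows. TTGCNNAA was found before 6 of the 28 genes and in 9.56% of all windows. A gene was counted if any of its windows matched, while the shares are per window, so the units differ. The longer GAGGAAGT (4 of 28 genes, 2.44% of windows) and TGACTCA (3 of 28 genes, 4.46% of windows) were searched too. Matches to AGGAAGT stood before genes that rose, such as S100a8 and Ly6g, and before genes that were not called, such as Mrc1 and Fcgr4.

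Dendritic cell genes were lower in adenoma, in all 4 cases with no overlap between the groups. Clec9a (ENSMUSG00000046080, chromosome 6, 129408862 to 129424763, plus strand) encodes a receptor for actin of dead cells on type 1 conventional dendritic cells. It stood at 1.91, 0.939, 0.983, 1.25 and 1.62 CPM in adenomas, against 5.09, 3.96 and 5.02 CPM in wild type, a log2 fold change of -1.80 ± 0.26 (adjusted p = 5.72e-04). Batf3, the transcription factor that type 1 cells depend on, stood at 1.12, 1.27, 0.894, 1.21 and 0.914 CPM in adenomas, against 2.60, 2.12 and 2.24 CPM in wild type (-1.10 ± 0.21, adjusted p = 0.00204). Adenoma 2 was the lowest adenoma for Clec9a and the highest for Batf3. Of the exon length of Clec9a, 5.59% overlaps Clec1b.

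Zbtb46, a transcription factor of all conventional dendritic cells that endothelial cells also express, stood at 3.12, 7.79, 3.48, 4.67 and 3.49 CPM in adenomas, against 10.2, 8.97 and 9.44 CPM in wild type. Of the 5 endothelial genes 3 were called higher, Cdh5 at a log2 fold change of 1.64, Tek at 1.38 and Pecam1 at 0.33. Kdr, at -0.39 (adjusted p = 0.0918), and Emcn, at 0.08, were not called. The part of endothelial cells in the Zbtb46 values was not tested. Adenoma 2 came nearest to wild type for Zbtb46, and the log2 fold change of -1.08 ± 0.29 (adjusted p = 0.0118) was -1.38 without it. The call was lost without wild type 1 and adenoma 5 together (adjusted p = 0.0817). Cd209a, a lectin of monocyte-derived and type 2 dendritic cells in the mouse, stood at 0.699, 0.610, 0.447, 0.173 and 0.948 CPM in adenomas, against 2.90, 1.95 and 2.4 CPM in wild type (-2.05 ± 0.41, adjusted p = 0.00290). A test against a factor of 2 called Clec9a and Cd209a. With the sex pattern as a covariate Batf3 and Cd209a were not called, at adjusted p of 0.0681 and 0.112.

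**Figure D3:**
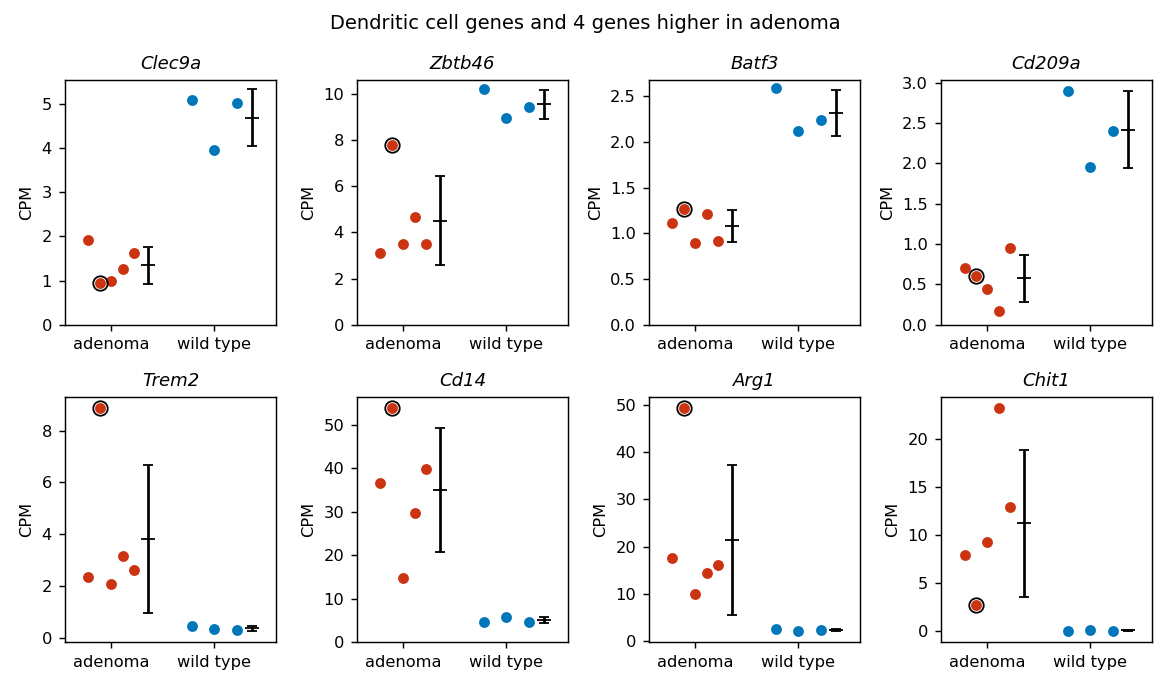
CPM in each library of the 4 dendritic cell genes (top) and of Trem2, Cd14, Arg1 and Chit1 (bottom), adenoma left in red and wild type right in blue, with the mean ± SD as a black bar and adenoma 2 circled. All adenomas lie below all wild-type libraries in the top row and above them in the bottom row.

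A list of 12 further dendritic cell genes had 10 tested, of which 7 were lower and 0 higher, with 3 not called. Among all genes tested 27.8% were lower and 30.3% higher. Cd209b and Cd209c, paralogs of Cd209a, averaged 0.426 ± 0.195 and 0.136 ± 0.0546 CPM in adenoma, against 3.23 ± 0.449 and 1.01 ± 0.414 CPM in wild type. Itgae, the integrin CD103 of mucosal dendritic cells and of intraepithelial T cells, averaged 11.8 ± 1.73 CPM in adenoma and 33.2 ± 2.26 CPM in wild type (log2 fold change -1.49 ± 0.13, adjusted p = 4.76e-05). Irf8, a transcription factor needed by type 1 dendritic cells and also made in B cells, averaged 73.1 ± 12.9 CPM in adenoma and 124 ± 6.17 CPM in wild type (adjusted p = 0.00240).

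Leukocyte markers fell beside the dendritic cell genes. Of 10 pan-leukocyte genes 6 were lower and 0 higher, against 27.8% lower among all genes tested. Their sums were 199 to 285 CPM in adenoma and 341 to 588 CPM in wild type. Of 7 T cell genes 6 were lower, with sums of 13.7 to 22.7 CPM in adenoma and 49.2 to 63.3 CPM in wild type. With libraries scaled to equal summed pan-leukocyte counts, Clec9a and Cd209a were still lower, at log2 fold changes of -1.05 (adjusted p = 0.0118) and -1.30 (adjusted p = 0.00763), while Zbtb46 and Batf3 were not called, at adjusted p of 0.339 and 0.466. Under that scaling all genes tested had a median of 0.79, beside 0.04 without it, and 9404 were called higher and 1542 lower.

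**Figure D4:**
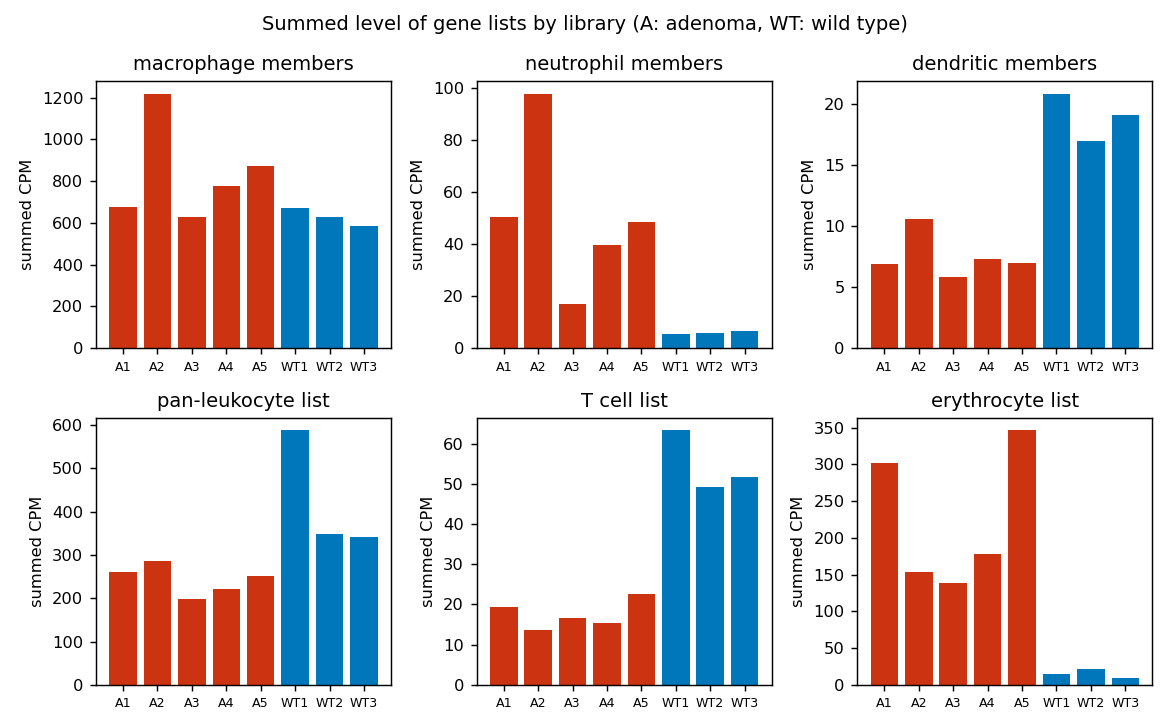
Summed CPM in each library of the macrophage, neutrophil and dendritic cell genes (top) and of the pan-leukocyte, T cell and erythrocyte lists (bottom), adenomas A1 to A5 in red left of wild types WT1 to WT3 in blue. Each panel has its own axis from 0. Neutrophil and erythrocyte sums are higher in every adenoma, dendritic cell, T cell and pan-leukocyte sums lower, and macrophage sums overlap between the groups.

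Most macrophage genes did not pass the test in either direction. C1qa, C1qb and C1qc encode the chains of complement C1q, which tissue macrophages make. C1qa stood at 57.6, 88.6, 50.1, 60.3 and 70.3 CPM in adenomas, against 67.5, 66.7 and 59.5 CPM in wild type, a log2 fold change of 0.02 ± 0.17 (adjusted p = 0.931). C1qb and C1qc had log2 fold changes of 0.14 ± 0.18 and 0.13 ± 0.20, and all 3 ran together across libraries, with adenoma 2 highest and adenoma 3 lowest. Adgre1, the F4/80 antigen, averaged 20.3 ± 5.48 CPM in adenoma and 21.4 ± 1.28 CPM in wild type (-0.07 ± 0.19, adjusted p = 0.764). Cd68, the scavenger receptor gene Msr1 and the haemoglobin scavenger receptor gene Cd163 had log2 fold changes of 0.19, -0.03 and -0.16. Mrc1, the mannose receptor, averaged 39.8 ± 22.02 CPM in adenoma and 30.3 ± 1.26 CPM in wild type, with 78.7 CPM in adenoma 2 and 26.1 to 35.0 CPM in the others. Ms4a7 had a log2 fold change of -0.42 ± 0.19 (adjusted p = 0.0871).

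Calls of these genes changed without adenoma 2, in which all 12 macrophage genes were higher than in any other adenoma. Calls over all genes changed too. Without adenoma 2, 6092 of 18195 genes tested were lower, where 5099 of 18345 had been. Of the 12 macrophage genes 4 were then lower, where 1 had been. They were Csf1r, Ms4a7 (log2 fold change -0.56, adjusted p = 0.00689), Adgre1 (-0.26, adjusted p = 0.0405) and Msr1 (-0.23, adjusted p = 0.0483), and the median of the 12 moved from 0.08 to -0.09. Fcgr3 was called higher without adenoma 2, at 0.38 (adjusted p = 0.0387), and also without adenoma 3, at 0.72 (adjusted p = 0.0349). With libraries scaled to equal pan-leukocyte counts 8 macrophage genes passed as higher, and the 12 had a median of 0.79, beside 0.79 for all genes under that scaling.

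Csf1r, Trem2 and Apoe were the macrophage genes called with all libraries. Csf1r (ENSMUSG00000024621, chromosome 18, 61100598 to 61132149, plus strand) encodes the receptor for colony-stimulating factor 1 and interleukin-34, on which most macrophages depend. It stood at 50.8, 80.5, 50.1, 47.5 and 62.1 CPM in adenomas, against 100.3, 106 and 103 CPM in wild type, and fell by 0.82 ± 0.17 on the log2 scale (adjusted p = 0.00314). All adenomas lay below all wild-type libraries, while the ranges of Adgre1 and the C1q genes overlapped. Of the exon length of Csf1r, 15.1% overlaps Hmgxb3 on the other strand. The kit loses strand, so reads in that overlap cannot be told apart by strand. The strand setting of the counting is not given in the sources used here. The call was lost with pan-leukocyte scaling, at -0.11 (adjusted p = 0.736), and with pan-epithelial scaling, at -0.96 (adjusted p = 0.0592).

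Trem2 (ENSMUSG00000023992, chromosome 17, 48346401 to 48354147, plus strand) encodes a lipid receptor of macrophages that signals through Tyrobp. It stood at 2.33, 8.87, 2.06, 3.16 and 2.61 CPM in adenomas, against 0.458, 0.334 and 0.273 CPM in wild type, a log2 fold change of 3.39 ± 0.63 (adjusted p = 0.00204). Without adenoma 2 the change was 2.80 (adjusted p = 3.84e-05). Apoe, the apolipoprotein made by macrophages and also by other cells, stood at 402, 738, 378, 496 and 542 CPM in adenomas, against 322, 273 and 247 CPM in wild type (0.87 ± 0.23, adjusted p = 0.0114). Per kilobase of exon Apoe had the highest level of the 36 genes, at 239 CPM per kilobase in adenoma and 131 in wild type, and C1qa had 62.9 in adenoma and 62.1 in wild type. Apoe did not pass once wild type 3 was left out (adjusted p = 0.0515), with pan-epithelial scaling (0.179) or with the sex pattern as a covariate (0.269).

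**Figure D5:**
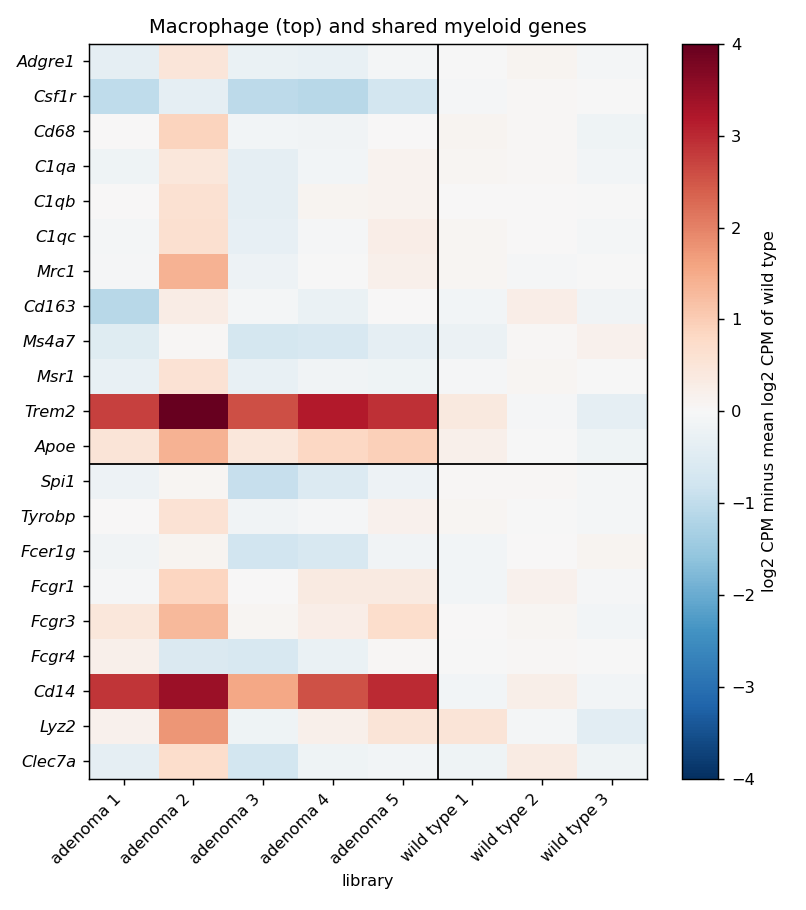
Log2 CPM of the 12 macrophage genes (above the line) and 9 shared myeloid genes (below it) in each library, minus the mean log2 CPM of wild type, with adenomas left of wild types. Red is above and blue below the wild-type mean. Trem2 and Cd14 are red in all 5 adenomas, Csf1r is blue in all 5, and the adenoma 2 column is redder than the other adenoma columns for most genes.

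Among the 9 genes shared by myeloid cells 1 was called. Cd14 (ENSMUSG00000051439, chromosome 18, 36725067 to 36726798, minus strand), the co-receptor for bacterial lipopolysaccharide, stood at 36.6, 54.0, 14.8, 29.7 and 39.9 CPM in adenomas, against 4.68, 5.85 and 4.64 CPM in wild type. It rose by a log2 fold change of 2.79 ± 0.40 (adjusted p = 6.12e-04), with no overlap. Spi1, the PU.1 transcription factor that specifies the myeloid lineage, averaged 7.68 ± 1.90 CPM in adenoma and 9.60 ± 0.522 CPM in wild type (-0.32 ± 0.21, adjusted p = 0.212). The signalling adaptors Tyrobp and Fcer1g had log2 fold changes of 0.15 ± 0.17 and -0.28 ± 0.20. The activating Fc receptors Fcgr1, Fcgr3 and Fcgr4 had 0.35, 0.62 and -0.21, and the beta-glucan receptor Clec7a had -0.07. Lyz2, the lysozyme of macrophages and neutrophils, stood at 345 CPM in adenoma 2 and 90.7 to 144 CPM in the other adenomas, against 145, 96.0 and 75.7 CPM in wild type, and was not called (adjusted p = 0.283). Its near copy Lyz1, the lysozyme of Paneth cells, stood at 632 to 2297 CPM in adenoma and 2564 to 2955 CPM in wild type, so reads placed on the wrong copy could change the Lyz2 counts.

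Arginase and chitinase genes were higher in adenoma, with 3 of 3 called and no overlap. Arg1 (ENSMUSG00000019987, chromosome 10, 24915221 to 24927484, minus strand), the arginase of alternatively activated and tumour-associated macrophages, stood at 17.5, 49.3, 9.92, 14.4 and 16.0 CPM in adenomas, against 2.65, 2.23 and 2.46 CPM in wild type. Its log2 fold change was 3.13 ± 0.58 (adjusted p = 0.00242), or 2.56 without adenoma 2. Chil3, a chitinase-like protein of mouse macrophages and neutrophils, averaged 2.05 ± 1.52 CPM in adenoma and 0.360 ± 0.120 CPM in wild type (2.49 ± 0.61, adjusted p = 0.00786), and its near copy Chil4 reached at most 1.52 CPM. With the sex pattern as a covariate Chil3 was not called (adjusted p = 0.119). Chit1 (ENSMUSG00000026450, chromosome 1, 134111242 to 134151540, plus strand) encodes the chitotriosidase of activated macrophages in humans. It was higher too, but its order among the adenomas differed from that of Arg1 and Chil3. It stood at 7.92, 2.68, 9.29, 23.2 and 12.9 CPM in adenomas 1 to 5, lowest in adenoma 2, and had 1 count over the wild-type libraries. The ratio of summed counts was 642, with an exact 95% counting interval of 115 to 25362 (adjusted p = 4.68e-04).

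Other macrophage and monocyte genes went both ways. Of a list of 24, 21 were tested, 2 were higher and 7 lower, against 30.3% higher and 27.8% lower among all genes tested. Spp1, osteopontin, which macrophages and epithelium both make, averaged 99.1 ± 54.9 CPM in adenoma and 0.868 ± 0.311 CPM in wild type, a log2 fold change of 6.84 ± 0.66 (adjusted p = 1.34e-04). Timd4, a phosphatidylserine receptor of long-lived resident macrophages, averaged 0.261 ± 0.0773 CPM in adenoma and 2.74 ± 0.967 CPM in wild type (-3.36 ± 0.32, adjusted p = 7.91e-05). The transcription factor Maf averaged 26.0 ± 5.30 CPM in adenoma and 189.7 ± 13.1 CPM in wild type, and Mertk, a receptor for the uptake of dying cells, averaged 37.6 ± 8.32 CPM in adenoma and 245 ± 55.0 CPM in wild type. Maf and Mertk are not specific to macrophages, and the cells that held them were not tested.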

How the data were processed

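RNA from whole tissue was sequenced in 8 mouse libraries, 5 of adenoma and 3 of wild-type small intestine. Per the labels' protocols, the kit was TruSeq RNA v2, in which strand is lost. The file deposited by the authors holds raw counts by gene. The tools named per the submitters' processing notes are TopHat2, HTSeq and FastQC, with build GRCm38. For versions, annotation and strand setting nothing was given in the sources used here. Reads shared by near copies can be lost or misplaced in such counts. All 8 columns were matched to libraries by name, and symbols and positions were taken from GENCODE M21 (37693 of 39179 identifiers matched).

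Counts were filtered with filterByExpr, scaled by TMM and tested with robust quasi-likelihood fits in edgeR 4.0.16 (R 4.3.3), with Benjamini-Hochberg adjustment over 18345 genes, a threshold of 0.05, and glmTreat for a factor of 2. The SE is the log2 fold change over the square root of F. The fit was tested on simulated data. Libraries of a group differed beyond sampling noise (chi-square per degree of freedom 20.1 to 149). The members, role groups and lists were chosen with earlier results of these data known. All members were named, and from each further list the up to 4 genes with the smallest adjusted p and the leading gene of the minority direction, with near copies of members. Hoxb13, Gata4, Xist, Ddx3y, Csf1, Vil1, Cdh5, Tek, Pecam1, Kdr, Emcn and the precursor genes were named after their values were seen. Lists of other cell types are described by counts of calls and sums. Flt3l and Lilrb4a were not analysed here. Alternatives were RLE, upper-quartile, total-count, pan-epithelial and pan-leukocyte scaling, no filter or 5 CPM in 3 libraries, a replicate block, leaving out libraries or 4 ribosomal RNA genes, the sex pattern as a covariate, DESeq2 1.42.0 and limma-voom (limma 3.58.1). Intervals and floors cover counting error only.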

Additional observations from a re-analysis of the deposited data

Results flagged for a closer look

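Within the 5 adenomas, 41 values were compared for a library far from the others (the 36 genes and the 5 role sums), and 9 genes were flagged, all for adenoma 2. For independent values with a normal spread, chance flags about 1 in 20 such groups. These values come from the same libraries and are not independent. Adenoma 2 was the highest adenoma for 36.6% and the lowest for 36.4% of all genes tested. The share of all genes that the rule would flag was not computed. For each flagged gene the gap between adenoma 2 and the next adenoma was over 0.71 of the range of the group. The macrophage genes among them were Adgre1 at 29.8 CPM, Cd68 at 15.2 CPM, Mrc1 at 78.7 CPM, Msr1 at 26.9 CPM and Trem2 at 8.87 CPM. The others were Lyz2 at 345 CPM, Ly6g at 10.9 CPM, Arg1 at 49.3 CPM and Chil3 at 4.74 CPM. The ratio of adenoma 2 to the mean of the other adenomas ran from 1.66 for Adgre1 to 15.2 for Ly6g. Adenoma 2 is also the library with Hoxb13, and the part of that difference in these values was not tested.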

How the results depend on the processing

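Over the 36 genes and all alternatives, 663 values kept their direction and their side of the threshold, 26 lost a call, 17 gained one and 38 changed sign. Leaving out single libraries, the 36 genes gave 11 to 14 calls higher and 5 to 8 lower (8 without adenoma 2). Over all genes these fits gave 4529 to 6184 higher and 4135 to 6092 lower, with the most of both without adenoma 2. Macrophage calls were 1 to 2 higher and 1 to 4 lower, and shared myeloid calls 1 to 2 higher. The neutrophil count of 7 higher was 6 to 7 and the dendritic count of 4 lower stayed at 4. DESeq2 gave Ly6g no adjusted p. Scaling to pan-epithelial genes gave 11 higher and 3 lower of the 36, macrophage counts of 1 higher and 0 lower, and 1791 genes higher in all with 4072 lower. Scaling to pan-leukocyte genes gave 23 higher and 2 lower of the 36, with 8 macrophage genes higher and 0 lower, 5 shared myeloid genes higher, 2 dendritic genes lower, and 9404 and 1542 genes in all. The main split was 5558 higher and 5099 lower. The 5 CPM filter tested 25 of the 36 and gave 6 higher and 2 lower, with 1 macrophage gene and 2 neutrophil genes higher and 1 dendritic gene lower. A covariate for the sex pattern leaves adenoma 1 to carry the contrast, and with it 3074 genes were higher and 2298 lower in all, with 1 macrophage gene higher, 2 macrophage genes lower and 2 dendritic genes lower. Ly6g, Chil3, Cd209a, Batf3 and Apoe then lost their calls, at adjusted p from 0.0681 to 0.277.

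The replicate block left 3345 genes higher and 3204 lower in all, and 1 macrophage gene higher, with Apoe and Zbtb46 lost. Same-numbered libraries did not deviate together over all genes tested (correlations of -0.02, 0.05 and 0.06). With so few pairs, these correlations cannot exclude a pairing by number. Sign changes were of log2 fold changes that were not called with all libraries, and were called after it only for Msr1 under pan-leukocyte scaling, at 0.68. That scaling also turned Adgre1 to 0.64, Cd163 to 0.56, Ms4a7 to 0.26, Spi1 to 0.39, Fcer1g to 0.41, Fcgr4 to 0.51 and Clec7a to 0.59. C1qa turned to -0.017 with RLE and with DESeq2, -0.023 with the replicate block, -0.054 with the upper quartile, -0.12 with pan-epithelial scaling, -0.082 with the 5 CPM filter, -0.16 with the sex pattern and -0.0079 with limma-voom. C1qb turned to -0.00082 with pan-epithelial scaling. Total counts turned Adgre1 to 0.023, Msr1 to 0.066 and Clec7a to 0.034, and no filter turned Msr1 to 0.030. The sex pattern turned C1qc to -0.066, Mrc1 to -0.057, Fcgr1 to -0.043 and Fcgr4 to 0.20. Leaving out single libraries gave -0.12 to 0.10 for C1qa, -0.015 to 0.23 for C1qb, -0.033 to 0.23 for C1qc, -0.068 to 0.25 for Cd68, -0.017 to 0.51 for Mrc1, -0.23 to 0.029 for Msr1 and -0.35 to 0.12 for Clec7a. The causes were not tested. Low wild-type counts limit the sizes given for S100a8, S100a9, Ly6g and Chit1.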
